A study of Glycine max with 4 samples.

Results

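The 1087 regions described here are transcription start regions that carried tags in soybean roots and none in soybean shoots. They were chosen by measured values: start clusters of either tissue were joined into regions when at most 100 bp apart on the same strand, and a region was taken when its pooled root level reached 2 TPM and its pooled shoot level was exactly 0. They make up 1087 of 23330 regions in all, and 7.46% (95% Wilson interval 7.04 to 7.89) of the 14578 regions of 2 TPM or more in root. Because root and shoot levels made the choice, the contrast between the tissues in these regions is a description and supports nothing further. TPM is the authors' pooled level per tissue, in which 1 root tag is worth 0.286 and 1 shoot tag 0.329, so that the minimum of 2 TPM is 7 root tags.

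The start of a transcript is fixed by its core promoter, the stretch of DNA on which RNA polymerase II and the general transcription factors assemble. Some promoters place nearly all starts on one base or a few neighbouring bases, and others scatter them over a wider stretch. Plant genes can be switched between organs by using a promoter in one organ alone, or by moving between alternative starts of the same gene. A start used in roots and not in shoots is therefore a candidate for either, and the positions alone, which are without gene names here, do not say which.

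The roots and the shoots came from Williams 82, the soybean cultivar behind the reference genome, grown for 2 weeks under white light (300 µmol m-2 s-1) in days of 12 h light and 12 h dark. Each tissue had 2 nanoCAGE libraries, made from 1 µg of total RNA each, and nanoCAGE reads the 5′ ends of capped RNA. The labels number the libraries but do not say whether they are separate plants, so p-values measure only the spread between these libraries, which may be technical. Counts per library covered sequences 1 to 12 and part of sequence 13 of 20, with 1000476 and 874004 tags in root and 901261 and 655935 tags in shoot, and 766 of the 1087 regions. The other 321 have pooled values only. In whole organs, fewer cells of a type and less RNA per cell cannot be told apart.

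Most of these regions were weak. Their median root level was 3.44 TPM, with quartiles at 2.29 and 6.01 TPM and a maximum of 51.4 TPM. Only 110 reached 10 TPM and 26 reached 20 TPM, and 158 sat at the minimum of 7 tags. Together they held 5619 TPM, 0.728% of all root TPM. The shoot value of 0 has its own limit: no tag among 2291657 pooled shoot tags allows up to 3 tags, or 0.981 TPM, in any one region. Such limits and all binomial intervals cover counting error alone, because reads copied by PCR need not be separate molecules unless molecular identifiers tell them apart.

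Silence in shoot became rarer with each step in root level. Of the regions between 2 and 2.5 TPM in root, 23.5% (95% Wilson interval 21.2 to 25.9) had no shoot tag. The share was 16% from 2.5 to 4 TPM, 9.0% from 4 to 8 TPM, 4.58% from 8 to 16 TPM and 1.82% from 16 to 32 TPM. From 32 to 64 TPM it was 0.344% (0.147 to 0.804), 5 regions, and above 64 TPM none of 1769 regions was silent, which allows a share of up to 0.170%. The decline was shallower in the other direction. Of the regions between 2 and 2.5 TPM in shoot, 14.0% (11.5 to 16.8) had no root tag, and of those of 64 TPM or more in shoot, 2.88% (2.2 to 3.8) still had none. These shares come from pooled libraries and were not tested.

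**Figure D1:**
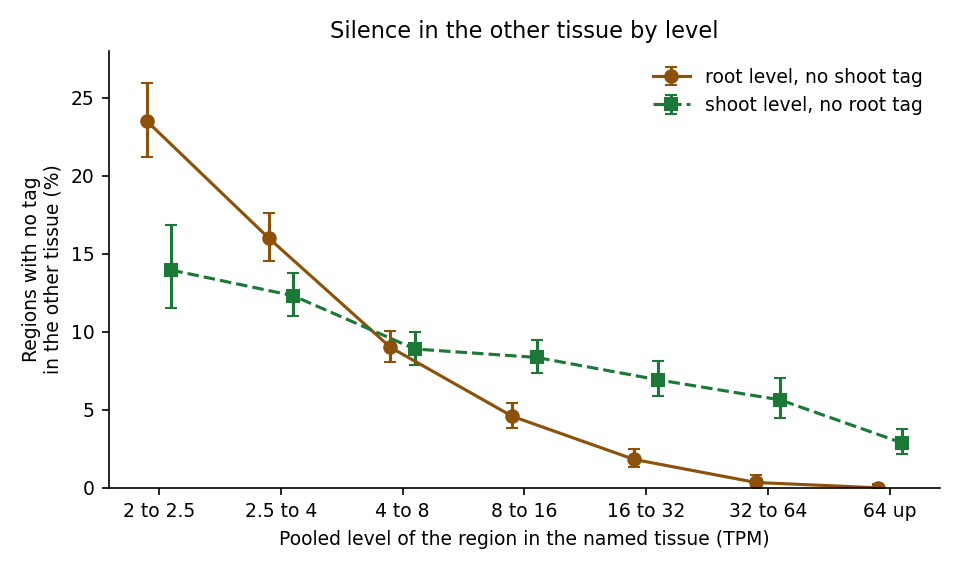
Share of regions with no tag in the other tissue (y axis, percent) by the pooled level of the region (x axis, TPM classes); circles give regions by their root level, squares regions by their shoot level, and bars are 95% Wilson intervals. The root curve starts at 23.5% and reaches 0, and the shoot curve starts at 14.0% and ends at 2.88%.

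The limits of the rule cut through a continuum. At 7 root tags (2.01 TPM) 158 regions were taken, while 260 regions with 6 root tags (1.72 TPM) and no shoot tag were not. The first of the regions just inside, by order along the sequences, lie on sequence 1 at position 52977499 of the minus strand with 5 and 2 tags in the root libraries, at 57652231 of the plus strand with 2 and 5, and at 58601102 of the minus strand with 3 and 4. Just outside, on the same sequence, position 4373994 of the plus strand had 4 and 2 root tags, 5352578 of the minus strand had 1 and 5, and 5362580 of the plus strand had 2 and 4. All 6 are single bases. On the shoot side, 772 regions of 2 TPM or more in root had exactly 1 shoot tag, and some of these were stronger in root than any region taken. The strongest, on sequence 7 plus strand at 4156181 to 4156202, had 84 and 215 tags in root against 1 and 0 in shoot. The next, on sequence 7 minus strand at 7601195 to 7601211, had 186 and 31 tags in root against 1 and 0 in shoot. The one after it, on sequence 13 minus strand at 36306827 to 36306837, has pooled values only, 58.3 TPM in root against 0.329 TPM in shoot.

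The 10 strongest regions were compact. Their widths ran from 4 to 70 bp, and in each a main base held 42.0% to 83.9% of the root level. The strongest of all, on sequence 13 minus strand at 45135281 to 45135290, lies beyond the count table. It had 51.4 TPM in root, 179 pooled tags, of which 150 started at base 45135289. The fourth, on sequence 18 minus strand at 58663378 to 58663381, also has pooled values only. Its 120 tags fell on 3 bases, 77 of them on 58663378 and 38 on 58663381.

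The other 8 of these 10 have counts per library, and both shoot libraries were at 0 in each. The root libraries held 136 and 31 tags at 45652264 to 45652271 of sequence 10, minus strand. At 10156749 to 10156755 of sequence 11, plus strand, the tags were 69 and 66. At 989649 to 989654 of sequence 6, minus strand, the tags were 67 and 45. The sequence 11 region was thus nearly even between the root libraries, whereas root replicate 1 carried most tags of the sequence 10 region. Sequence 12 plus strand at 3877276 to 3877283 had 73 and 38 tags in root, and sequence 7 minus strand at 16748651 to 16748675 had 81 and 24. Sequence 12 minus strand at 37398014 to 37398049 had 51 and 49 tags. Root replicate 1 again led in the first and second of these 3. The last of the 8 by level were sequence 2 minus strand at 7770625 to 7770694, with 35 and 65 root tags, and sequence 12 plus strand at 37120653 to 37120656, with 70 and 24. In tags, the sequence 2 region was the only one of the 8 in which root replicate 2 held more. Scaled for library size, replicate 2 was also higher in the sequence 11 region and in the minus-strand region of sequence 12.

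Ranked instead by the weaker root library, the sequence 11 region came first. Its levels were 72.6 and 78.4 CPM in the root libraries (75.5 ± 4.1 CPM, SD, n = 2). CPM are counts relative to the tags of a library in tested regions, after edgeR's scaling by the trimmed mean of M values. They are not on the scale of the pooled TPM. The region on sequence 12 minus strand followed with 55.9 ± 3.2 CPM, then that on sequence 6 with 62.0 ± 12.1 CPM and that on sequence 12 plus strand at 3877276 with 61.0 ± 22.4 CPM. The 4 regions after them are not among the 10 strongest. Sequence 3 minus strand at 35006965 to 35006970 had 42 and 41 tags, and sequence 9 plus strand at 7275584 to 7275609 had 49 and 37. Sequence 13 plus strand at 42635579 to 42635584 had 52 and 36, and sequence 7 plus strand at 16202370 to 16202374 had 39 and 46. The weaker root library was at 41.0 CPM or more in these 4, and neither shoot library had a tag.

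Base by base, the leading base was shared by the root libraries in these 8 regions, 1 tie included, save on sequence 12 plus strand. There base 3877276 led in replicate 1 (37 tags, against 28 at 3877279), and base 3877279 led in replicate 2 (20 tags, against 17 at 3877276). On sequence 11 base 10156750 took 44 and 32 tags and base 10156755, 5 bases downstream, took 14 and 20. On sequence 12 minus strand the main base 37398045 took 20 and 22 tags, while base 37398014, 31 bases downstream, took 9 and 7. The sequence 3 region was close to a single start, with 36 and 31 tags on base 35006970. The sequence 9 region was the most scattered of the 8, with 14 bases in use and 25.6% of its level on the main one.

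**Figure D2:**
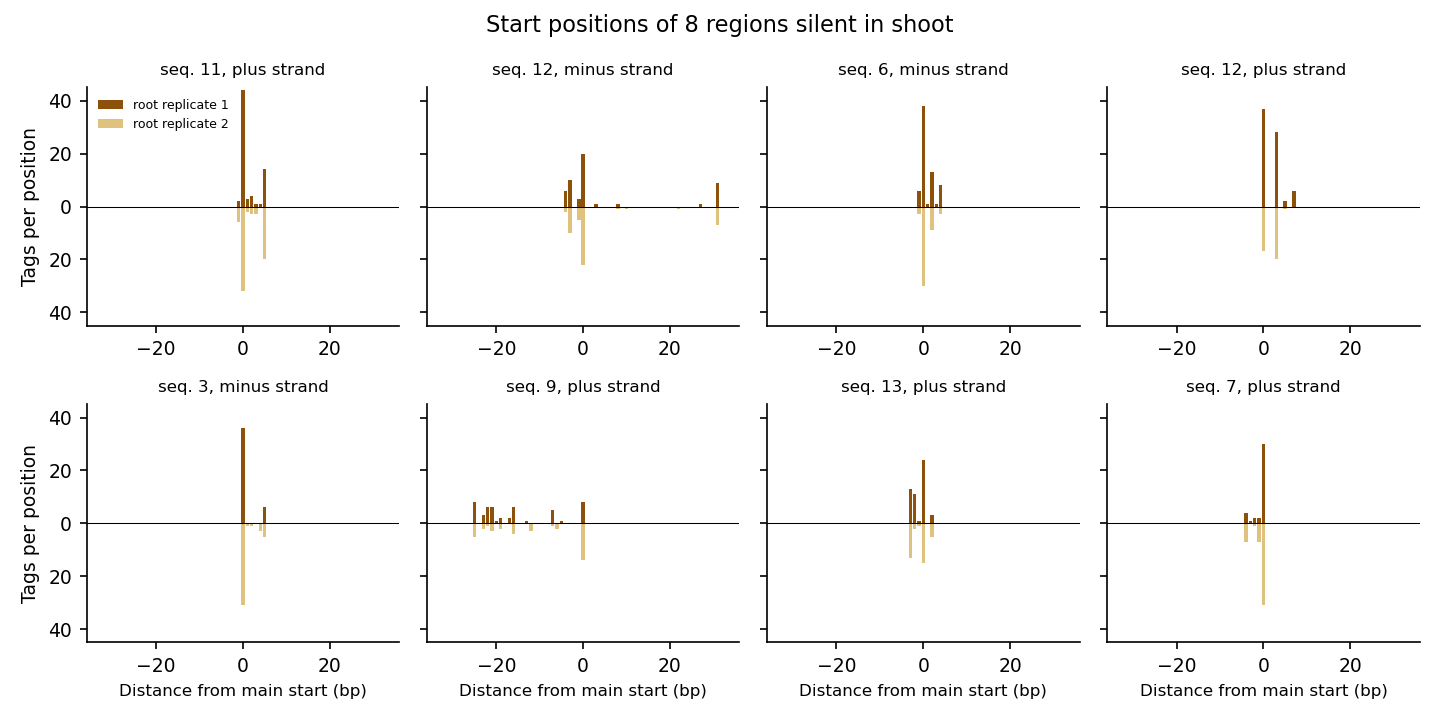
Tags per start position (y axis, root replicate 1 above the line and root replicate 2 below it) against the distance from the main start in bp (x axis, downstream to the right) in the 8 regions with the highest level in the weaker root library. The same base leads in both root libraries (in the sequence 9 panel through a tie) except in the sequence 12 plus strand panel, and the sequence 9 panel shows 14 bases in use.

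Nearly every region was seen in both root libraries. Of the 766 regions with counts, 740 (96.6%, 95% Wilson interval 95.1 to 97.7) had a tag in each, 15 had tags in root replicate 1 alone and 11 in root replicate 2 alone. With 2 or more tags asked of each library the share was 90.6%. Scaled levels of the libraries lay within 2-fold of each other in 425 regions (55.5%), and replicate 1 was higher in 370 and replicate 2 in 396. Of the 26 regions seen in 1 root library, 23 were a single base and 9 were at the minimum of 7 tags. The largest of the 26, at 19723841 to 19723842 of sequence 1, plus strand, had 41 tags in root replicate 1 and 0 in replicate 2. Among regions with 20 or more root tags it was the most uneven, and by the ratio of scaled tags, with 0.5 added to each count, sequence 6 plus strand at 2140070 to 2140100 came next with 43 and 4 tags. At the other end of that ranking, sequence 4 minus strand at 52867188 to 52867193 had 17 and 15 tags, which is 17.9 and 17.8 CPM, and sequence 5 plus strand at 35986843 to 35986844 had 19 and 17. At matched root level the other regions were also mostly seen in both libraries: between 2 and 2.5 TPM the share was 92.5% of 212 silent regions against 96.9% of 641 regions with shoot tags.

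**Figure D3:**
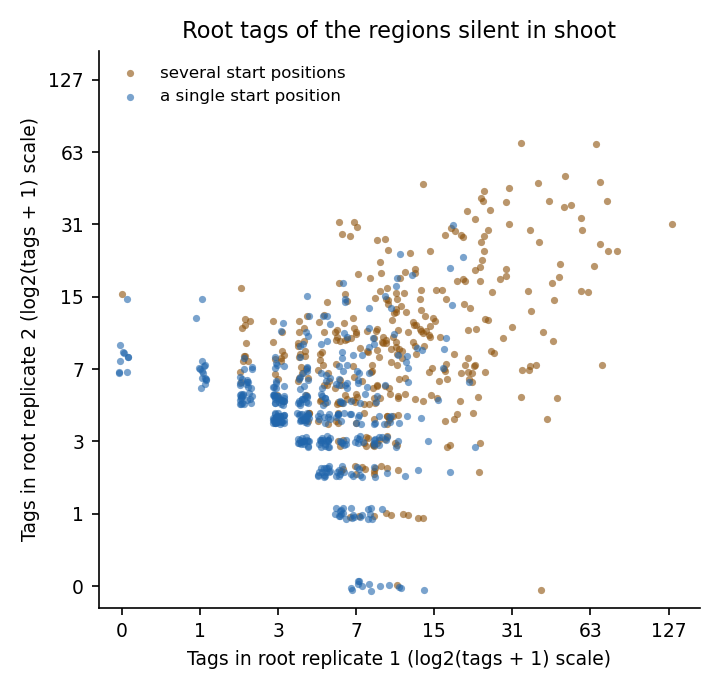
Tags in root replicate 1 (x axis) and root replicate 2 (y axis) of the 766 regions with counts, on a log2(tags + 1) scale with a small random shift of each point; brown points have several start positions and blue points 1. The empty lower left corner is the minimum of 7 tags, 15 points lie at 0 on the y axis and 11 at 0 on the x axis.

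A single base made up 559 of the 1087 regions (51.4%, 95% Wilson interval 48.5 to 54.4), against 14.8% of the 13491 other regions of 2 TPM or more in root. From 2 to 2.5 TPM, 93.5% of 292 silent regions and 64.8% of 951 others were single bases. From 2.5 to 4 TPM, 56.9% of the silent regions and 40.1% of the others were single bases, and from 4 to 8 TPM 27.9% and 16.4%. From 8 to 16 TPM the shares were 8.87% and 5.46%. There the silent regions had a median of 4 bases with root tags spread over 7 bp, against 7 bases over 32 bp in regions with shoot tags, and from 16 to 32 TPM a median of 5 bases over 9 bp against 11 bases over 49 bp. All bases counted here carry root tags, in both kinds of region. The rule bears on these values, since it asks that no base of a region carry a shoot tag. The joining of clusters bears on them too. All 1087 silent regions were root clusters joined with no other cluster, whereas the other regions could be joined with shoot clusters. Such joining could widen the stretch in which root bases were counted. The difference between the 2 kinds of region was not tested.

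Of the remaining silent regions, 168 had 2 bases, 242 had 3 to 5, 89 had 6 to 10 and 29 had more. The most bases, 27, lay on sequence 13 plus strand at 35028017 to 35028142, where the root libraries held 30 and 18 tags and no base took more than 12.5% of the level. Next came 1222936 to 1223097 of sequence 11, plus strand, with 26 bases and 37 and 29 tags. After it came 8999434 to 8999566 of sequence 6, minus strand, with 22 bases and 14 and 46 tags. These are dispersed starts over 126, 162 and 133 bp, in which the rule allowed no shoot tag. Within 500 bp outside these regions, on the same strand, there were 9, 1 and 0 shoot tags. The widest region, 51146959 to 51147177 of sequence 10, plus strand, held 15 and 5 root tags over 219 bp. Another of the widest, on sequence 6 minus strand at 10715462 to 10715606, spread 10 and 4 root tags over 3 bases in 145 bp. Only 25 of the 1087 regions were over 100 bp wide.

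Where both root libraries had 5 or more tags and several bases were in use, the most used base was the same in both in 174 of 250 silent regions (69.6%, 95% Wilson interval 63.6 to 75), ties counted as the same. At 16 to 64 TPM it was the same in 29 of 34 silent regions (85.3%, 69.9 to 93.6) and in 81.1% of 2330 regions with shoot tags. From 4 to 8 TPM these shares were 65.3% of 118 and 66.1% of 1471. The values of regions with shoot tags lay within the intervals of silent regions in both classes, and the differences were not tested.

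Whether a region counted as silent rested more on shoot replicate 1, the deeper shoot library, than on shoot replicate 2. Of the 9837 covered regions of 2 TPM or more in root, 993 had no tag in shoot replicate 1, 1692 had none in shoot replicate 2 and 766 had none in either. With shoot replicate 1 thinned at random to the number of tags of shoot replicate 2, 1265 had no tag in it. Between 2 and 2.5 TPM the thinned number was 325, against 340 in shoot replicate 2. The ratio between the shoot libraries grew with root level. Among the 3615 covered regions of 16 TPM or more in root, 42 (1.16%) had no tag in shoot replicate 1 and 219 (6.06%) had none in shoot replicate 2. Depth differs between these libraries, but with shoot replicate 1 thinned to the 655935 tags of shoot replicate 2 the number without a tag was 67. In 185 of these regions shoot replicate 1 alone held tags, with a median of 3 and a maximum of 25, while shoot replicate 2 alone held tags in 8, with a maximum of 2. Even at 64 TPM or more in root, 32 of 1218 regions had no tag in shoot replicate 2, against 0 in shoot replicate 1. The 2 shoot libraries therefore gave different answers for the strong regions.

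The root libraries did not part in this way in the mirror case. Among the 3290 covered regions of 16 TPM or more in shoot, 246 (7.48%) had no tag in root replicate 1 and 252 (7.66%) had none in root replicate 2, and 176 (5.35%) had none in either. The corresponding number in root, 34 of 3615 (0.941%) without a tag in either shoot library, lies below that in shoot with all libraries. Counted in shoot replicate 2 alone, 219 of 3615 regions had no tag, beside 246 and 252 of 3290 in the mirror case, at unlike depths. At 64 TPM or more the share was 2.63% in shoot replicate 2, against 6.39% and 5.42% in root replicates 1 and 2 in the mirror case. The tags found in shoot replicate 1 alone were more numerous in stronger root regions, with a median of 2 tags from 16 to 32 TPM, 4 from 32 to 64 TPM and 6.5 at 64 TPM or more. Whether root RNA, or root reads assigned to shoot replicate 1, contributed to them was not tested, and the count of silent regions rests on taking these tags as shoot tags.

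**Figure D4:**
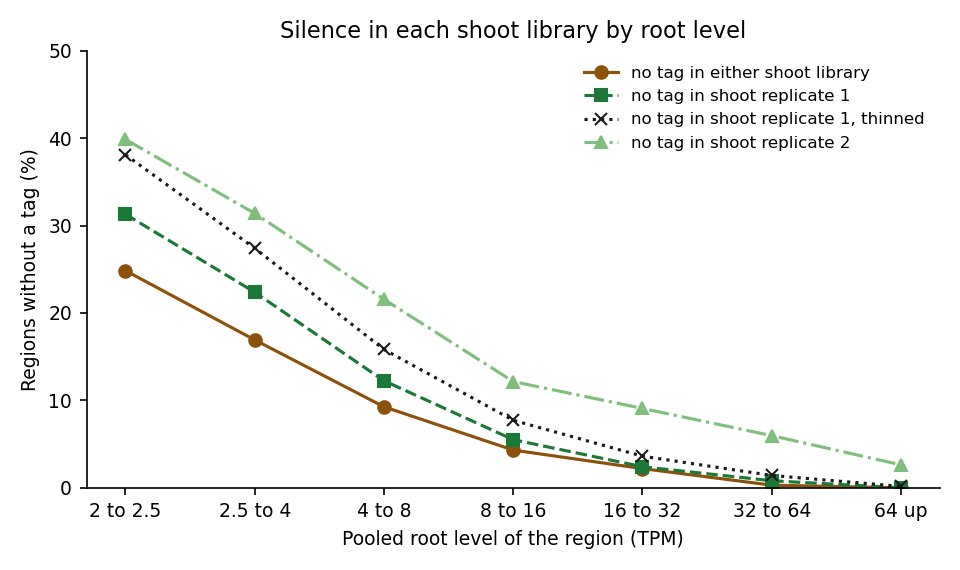
Share of covered regions without a shoot tag (y axis, percent) by pooled root level (x axis, TPM classes), in either shoot library, in each of them, and in shoot replicate 1 thinned to the number of tags of shoot replicate 2. At 64 TPM or more the share was 0 in shoot replicate 1 and 2.63% in shoot replicate 2, and the thinned library lies between them at every level.

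Few of these regions had enough tags for a test between tissues. Of the 766 with counts, 96 passed the count filter, which they could pass only through root, and all 96 were called higher in root (edgeR quasi-likelihood, Benjamini-Hochberg adjusted p below 0.05). Over all 7183 regions tested, 23.4% were called higher in root and 29.5% higher in shoot, 52.9% in all. The rule used this contrast, so nothing is read from the members' count. With shoot set to 3 counts for both libraries together, the root level as counted was 1.52-fold higher in the weakest regions and 36.2-fold higher in the strongest. The median of this ratio over the 766 regions was 2.60-fold, and it reached 5-fold in 156 regions and 10-fold in 50. Only the shoot side has a counting limit here. Counting error of the root tags and the spread between the root libraries were left out, so the ratios are not full lower bounds. For most of the regions, then, the counts do not show a large fold: with 7 root tags the ratio is 1.52-fold.

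Shoot tags next to silent regions were counted outside the regions themselves. The rule bears on the first 100 bp, since any shoot cluster that close was joined into the region, so that only shoot tags outside clusters could be found there. Within 100 bp outside the region on the same strand, 1002 of the 1087 regions (92.2%) had further root tags and 369 (33.9%, 95% Wilson interval 31.2 to 36.8) had shoot tags. Around the 13491 other regions of 2 TPM or more in root these shares were 94.6% and 84.6%. Within 500 bp, 495 silent regions (45.5%) had shoot tags, which leaves 592 with no shoot tag inside or within that distance. Within 100 bp there were 6768 root tags and 841 shoot tags in all. Of the 10 strongest regions, 9 had no shoot tag within 500 bp and the strongest had 1. On the opposite strand, within 100 bp and across the region itself, 5.89% of silent regions had root tags and 2.48% had shoot tags, against 5.74% and 4.62% of the other regions.

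In most measures of their surroundings the silent regions and other root start regions had similar values, and the differences were not tested. The median number of other start regions within a window of 1 Mb was 48 for silent regions and 48 for the others, and 7.64% and 7.78% had fewer than 10. A start region on the same strand lay within 1 kb of 170 silent regions (15.6%, 95% Wilson interval 13.6 to 17.9) and of 14.3% of the others. One on the opposite strand lay within 1 kb of 51 (4.69%, 3.59 to 6.12) and of 3.82%. Within 500 bp the opposite-strand shares were 3.50% (2.56 to 4.76) of silent regions and 2.22% (1.98 to 2.48) of the others. Within 10 kb they were 23.2% (20.8 to 25.8) and 26.9% (26.1 to 27.6), so at both distances the intervals do not overlap. On the same strand the shares were 12.1% and 9.99% within 500 bp, and 41.8% and 42.1% within 10 kb. No other start region on either strand lay within 10 kb of 495 silent regions (45.5%) and of 42.8% of the others.

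The nearest start regions on the same strand were mostly higher in root too. Their tags were not used to choose the silent regions. Of 317 silent regions with a neighbour within 5 kb on the same strand, 42 had another silent region as neighbour. Over the 275 others, in which a neighbour shared by 2 silent regions counts for each, 240 had more root than shoot TPM and 160 at least 5-fold more. Both numbers include 64 neighbours with no shoot tag, which lay below 2 TPM in root, so that their fold is not measured. More shoot TPM was found in 35, 13 of them at least 5-fold. These pooled counts were not made for the neighbours of other regions. In the covered part 101 same-strand neighbours other than silent regions could be tested by the same edgeR fit. Of these, 69 (68.3%) were higher in root and 8 (7.92%) higher in shoot. Over all tested regions these shares were 23.4% and 29.5%, and for 947 tested neighbours of root start regions with shoot tags they were 24.5% and 23.9%. The median log2 difference, root minus shoot, was 2.53 among the neighbours of silent regions and -0.06 over all tested regions. No test of the difference between these shares was made.

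The lean towards root was strongest close by. Within 1 kb 44 of 56 tested same-strand neighbours (78.6%) were higher in root, and within 10 kb 87 of 149 (58.4%). It appeared on both sides, with 41 of 55 neighbours upstream of the silent region and 29 of 47 downstream of it, 1 neighbour lying between silent regions and counted on both sides. In 146 of the 275 cases the neighbour was stronger in root than the silent region itself. On the opposite strand 28 neighbours within 5 kb could be tested, of which 13 (46.4%) were higher in root and 6 (21.4%) higher in shoot. Over all tested regions these shares were 23.4% and 29.5%. For 451 tested opposite-strand neighbours of root start regions with shoot tags they were 19.3% and 25.9%. With tags scaled to library totals, which raises the median log2 difference of all tested regions to 0.32, 73.3% of the same-strand neighbours and 32.4% of all tested regions were higher in root. Over all tested regions that scaling called 2325 higher in root and 1782 higher in shoot, in place of 1684 and 2119. Whether a region and its neighbour belong to the same gene was not examined, since no gene models of this assembly were used.

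**Figure D5:**
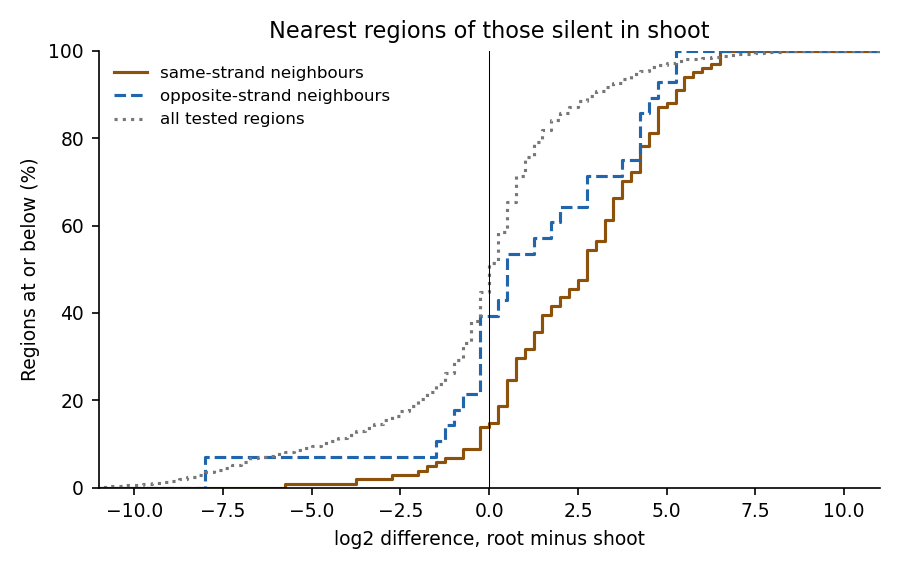
Cumulative share of tested regions (y axis, percent) by log2 difference, root minus shoot (x axis), for the nearest same-strand and opposite-strand regions within 5 kb of silent regions and for all 7183 tested regions. The same-strand curve lies to the right of that of all tested regions, with medians of 2.53 and -0.06.

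The 3 strongest silent regions with a neighbour called higher in root are on sequences 12, 4 and 10. On sequence 10 the silent region on the minus strand at 42364710 to 42364716, with 25 and 28 root tags, lies 194 bp from a downstream region with 94 and 91 tags in root against 2 and 0 in shoot, a log2 difference of 5.79 ± 0.59 (SE, adjusted p = 2.36e-05 by edgeR). Root and shoot libraries do not overlap there. On sequence 4 the region at 3367552 to 3367553 of the plus strand, with 21 and 33 root tags, has a downstream neighbour at 3370014 to 3370150 with 24 and 14 tags in root against 4 and 2 in shoot (2.00 ± 0.56, adjusted p = 0.0114 by edgeR). The sequence 12 region at 3877276 has an upstream neighbour at 3876566 to 3876569 with 14 and 14 tags in root against 2 and 1 in shoot (2.53 ± 0.60, adjusted p = 0.00488 by edgeR). The neighbours on sequences 12, 4 and 10 had 8.03, 10.9 and 53.05 TPM in root. That each held shoot tags follows from the rule, since without them it would itself count as silent.

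Of the 101 tested same-strand neighbours, 8 were higher in shoot, and those of the 3 strongest silent regions concerned lay 153, 4767 and 4932 bp away. On sequence 13 plus strand the region at 22543417 to 22543470 had 19 and 26 tags in root and none in shoot. The next region, 153 bp downstream at 22543623 to 22543650, had 24 and 17 tags in root against 57 and 18 in shoot, a log2 difference of -1.43 ± 0.44 (SE, adjusted p = 0.0184 by edgeR). Its scaled levels were 25.3 and 20.2 CPM in root against 83.1 and 37.6 CPM in shoot, which do not overlap. On sequence 6 plus strand the silent region at 9332321 to 9332343 (21 and 11 root tags) has its neighbour 4767 bp upstream, with 7 and 5 tags in root against 33 and 27 in shoot (-2.93 ± 0.46, adjusted p = 0.000344 by edgeR). On sequence 10 minus strand the single base 45496407 (8 and 9 root tags) lies 4932 bp from a downstream neighbour with 6 and 8 tags in root against 25 and 10 in shoot (-1.89 ± 0.51, adjusted p = 0.00944 by edgeR).

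Most silent regions had no other silent region within 5 kb. Chained at gaps of up to 5 kb on either strand, 1008 stood alone, 33 pairs held 66, 3 groups held 3 each and 1 group held 4. Such groups were not counted for other regions. Nearest regions within 5 kb were silent themselves in 42 of 317 cases on the same strand and 17 of 116 on the opposite. Among all regions 1087 of 23330 were silent, and the difference was not tested. Among the 4 groups of 3 or more, the strongest, on sequence 11 plus strand, spans 1603 bp and joins the region at 10156749 with the single base 10156914 (8 and 4 root tags) and the region at 10158327 to 10158351 (6 and 9), 46.5 TPM in all. On sequence 13 a group of 3 spans 4613 bp on both strands: the minus-strand region at 42833994 to 42833997 with 8.31 TPM, the plus-strand region at 42836277 to 42836309 with 24 and 12 root tags, and the plus-strand base 42838606 with 3 and 6. The group of 4, on sequence 10, lies within 1532 bp. Its plus-strand regions at 820268 to 820307 and 821383 to 821397 had 8 and 7, and 10 and 9, root tags. Its minus-strand regions, the base 819909 and the stretch 821401 to 821440, had 6 and 15, and 6 and 10. The last of these lies 4 bases beyond the end of a plus-strand region, so that silent starts of opposite strand lie side by side there.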

How the data were processed

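Transcription start sites were measured by nanoCAGE in 2 root and 2 shoot libraries, with tissue and replicate number read from the sample titles. The deposited count table gives raw tag counts per position and library, per the file headers. It held 479104 of the 711688 positions and ended on sequence 13 (minus strand, position 31697699) in 1 broken line, which was dropped. The deposited TPM table holds 1 pooled value per tissue and position on 20 sequences, per the file headers, and its values were inverted to whole tags (exponent 1.00 in root and 0.994 in shoot, 100% equal to the counts where both exist). The deposited cluster lists give start, end, TPM and number of positions, per the file headers. For the aligner, read filters, multiply mapped reads and clustering software: not given in the sources used here. As soybean has many near-identical gene copies, tags could have been split between copies or lost, and single regions are uncertain to that extent. Coordinates count from 1 on the deposited sequences. No genome or gene models of that assembly were used here, so no bases, motifs or genes are given.

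Clusters of both lists were joined at gaps of up to 100 bp. Regions with counts were tested in 1 fit with edgeR 4.0.16 (R 4.3.3), quasi-likelihood, TMM factors, filterByExpr and Benjamini-Hochberg adjustment at 0.05, root against shoot. Standard errors are the log2 difference divided by the root of the F statistic. The script was tested on simulated data. Neighbours are the nearest region, edge to edge; each tested neighbour counts once per set, and pooled levels count it once per silent region. The regions, lists and tests were chosen with earlier results of these data known. Named regions follow fixed rules: the 10 strongest, the 8 with the highest weaker root library, those with most bases and the widest, those at the limits, the most and least even among those with 20 or more root tags, the strongest groups of 3 or more, and the 3 strongest with a neighbour called in each direction. Alternatives were RLE factors, total tags, DESeq2 1.42.0, no filter, a replicate block, each library left out, other joining distances, levels and flanks. Left-out shoot libraries by level, and the thinning of shoot replicate 1, were chosen after seeing the data.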

Additional observations from a re-analysis of the deposited data

How the results depend on the processing

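The number of silent regions depends on the limits. It was 1087, against 2919 with a root minimum of 1 TPM, 335 with 5 TPM, 1859 with at most 1 shoot tag allowed, 718 with no shoot tag within 100 bp and 592 with none within 500 bp; joining distances of 0, 50 and 200 bp gave 1090, 1087 and 1041. In the covered part (766) leaving out a library gave 787 to 1692, the highest without shoot replicate 1. The number of silent regions called higher in root (96) was 499 with no count filter and 100 to 173 without single libraries, the highest without shoot replicate 2. Same-strand neighbours called higher in root (69 of 101) numbered 62 to 77 under other scalings, DESeq2, no filter and the block. They were 44 of 56 (78.6%) with a limit of 1 kb and 87 of 149 (58.4%) with 10 kb. With single libraries left out, the median log2 difference of the same-strand neighbours was 2.21 to 3.01, in place of 2.53. With no filter 38.9% of 198 same-strand neighbours and 19.5% of 77 opposite-strand neighbours were higher in root, against 15.4% of all 15741 regions, so the opposite-strand share was then near that of all regions. On the opposite strand (13 of 28, 46.4%) the number was 11 to 15 under the same scalings, DESeq2, no filter and the block. It was 7 of 11 (63.6%) with a limit of 1 kb and 24 of 69 (34.8%) with 10 kb. Over all tested regions the share was 23.4%. With single libraries left out, the median log2 difference of the opposite-strand neighbours was 0.47 to 0.99, in place of 0.39. With the replicate number as a block, 3467 regions were called in place of 3803, and 67 in place of 69 same-strand neighbours. Deviations of same-numbered libraries correlated at -0.05 across regions. With 2 libraries per tissue this value cannot tell whether same-numbered libraries share plants or a preparation. The share of single bases was 14.0% at 5 TPM or more. Depth limits the weak regions: at 7 root tags, a shoot level 1.52-fold below the root level as counted would still be within the 3 counts that a count of 0 allows. The share with a same-strand region within 1 kb was 11.1% with a joining distance of 200 bp.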

Other observations

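The strongest silent regions that were a single base, picked after their values were seen, had 65 pooled root tags at base 37405665 of sequence 13 minus strand (18.7 TPM), 19 and 30 root tags at 37521119 of sequence 10 minus strand, and 20 and 23 at 48327991 of sequence 9 minus strand. The second lay 50016 bp from the nearest region on its strand and 48646 bp from the nearest on the other.

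All 20 sequences held silent regions. Their share of the regions of 2 TPM or more in root ran from 5.31% (95% Wilson interval 3.94 to 7.13) on sequence 17 to 9.31% (7.52 to 11.5) on sequence 10. It was 7.79% where counts exist and 6.77% elsewhere, with median root levels of 3.44 TPM in both. The plus strand held 567 and the minus strand 520.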
